A study of Saccharomyces cerevisiae with 6 samples.

Results

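The genes examined here encode the proteins that build silent chromatin and cap telomeres in the budding yeast Saccharomyces cerevisiae. They were SIR1, SIR2, SIR3, SIR4, RIF1, RIF2, SAS2, SAS4, SAS5 and DOT1, chosen by name. All 10 had 1 probe set each on the expression arrays, among 5449 genes and 5498 probe sets tested. Deletion strains of 7 of them, read by 14 tag features, were among the 4303 strains of the integration arrays. The sir2, sir3 and sir4 strains were not analysed here.

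As background, silent chromatin in this yeast covers the silent mating-type loci, the regions beside telomeres and the ribosomal DNA. The silencers of the mating-type loci recruit Sir1, which hands over to a complex of Sir2, Sir3 and Sir4. Sir2 is an NAD-dependent deacetylase that removes the acetyl groups of histone tails, and Sir3 and Sir4 bind the deacetylated tails and spread. At telomeres the sequence-specific protein Rap1 recruits Sir3 and Sir4, and also Rif1 and Rif2, which limit telomere length. The SAS-I acetyltransferase (Sas2, Sas4 and Sas5) and the histone methyltransferase Dot1 place marks on active chromatin that keep the Sir complex from spreading. Fun30, the remodeller whose deletion was profiled, has itself been linked to silencing.

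The study comprised 6 arrays. Expression was profiled in log-phase cells of the haploid strain BY4741, grown in synthetic complete medium, with 2 arrays of the wild type and 2 arrays of a fun30 deletion that the labels call isogenic. The other experiment used pooled homozygous diploid deletion strains, each marked by DNA barcodes. Pools received a linear URA3 cassette, built to replace either ISU1 or SOD2, and the control pool received a circular plasmid, pRS416. Transformants were selected on medium without uracil, and the barcodes of a cassette pool and of the plasmid pool were hybridised together, with 1 two-colour array per cassette. Nothing in the labels tells whether replicate expression arrays came from separate cultures, or whether a genotype was represented by more than 1 isolate. The p-values therefore measure only the spread between these arrays. Loss of Fun30 and any further difference between the strains used cannot be told apart.

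The labels were checked first. FUN30 had log2 signals of 9.63 and 9.40 on the wild-type arrays and of 3.37 and 3.55 on the deletion arrays. The latter were under the background mark of 5.24, the 95th percentile of probe sets annotated to genes outside the S. cerevisiae gene table. BY4741 is a MATa strain that lacks MET17 (also called MET15), URA3 and LEU2. URA3 and LEU2 lay below the background level on average in both genotypes. HIS3, a further auxotrophic marker of BY4741, had mean log2 signals of 12.94 in the wild type and of 12.73 in the deletion, above that level. MET17, which encodes a homocysteine-forming enzyme, had a mean log2 signal of 5.48 ± 0.01 in the wild type and of 12.99 ± 0.08 in the deletion (SD, n = 2 each). The arrays labelled fun30 deletion thus go against the BY4741 label at this marker, and the strains differed at more than FUN30. In the deletion 75 of the 5498 probe sets rose and 71 fell, by limma with an adjusted p under 0.05.

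SIR4 was the 1 gene of the 10 that rose, and none fell, where 1.36% of all tested probe sets rose and 1.29% fell, 2.66% in all. The other 9 did not pass, and they spanned log2 differences from −0.54 for SAS2 to 0.20 for SIR1. Of the 10, 4 had an unadjusted p (limma) under 0.05, namely SIR4 above and SIR2, SAS2 and SAS5 below the wild type, against 22.2% of all probe sets. The deletion arrays did not overlap the wild-type arrays for 7 of the 10, against 58.5% of all probe sets. Both deletion arrays lay lower for 4 of them, against 30% of all probe sets, and higher for 3, against 28.5%. The median absolute difference was 0.16 for the 10 genes and 0.11 for all probe sets. None of the 10 probe sets carried a name that marks cross-hybridisation, and all had mean log2 signals above the background level, the lowest being 7.75 for RIF2 in the wild type.

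**Figure D1:**
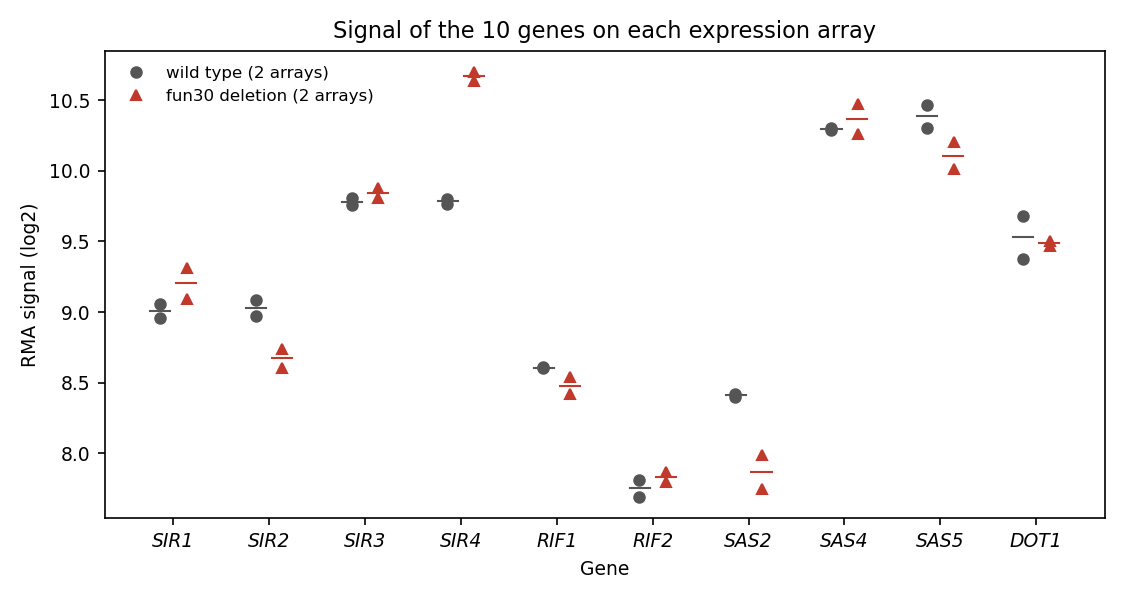
RMA signal (log2, vertical axis) of the 10 genes on each of the 2 wild-type arrays (grey circles) and the 2 fun30 deletion arrays (red triangles), with short lines at the group means. SIR4 stands apart with signals of 10.64 and 10.70 in the deletion against 9.77 and 9.80 in the wild type, while SAS2 and SIR2 lie lower on both deletion arrays and RIF2, SAS4 and DOT1 overlap.

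Among the SIR genes, SIR4 (YDR227W), which encodes the scaffold of the silencing complex, had log2 signals of 9.77 and 9.80 in the wild type and of 10.64 and 10.70 in the deletion. Each of the 4 possible array pairings between genotypes gave a difference between 0.84 and 0.93. The difference was 0.88 ± 0.06 (SE), a 1.85-fold rise, with an adjusted p of 0.00686 in limma and a 95% interval of 0.72 to 1.05. Only 1.42% of all probe sets had a larger absolute difference. SIR2 (YDL042C), the catalytic subunit, had signals of 9.08 and 8.97 in the wild type and of 8.74 and 8.60 in the deletion. Both deletion arrays were therefore lower, but the difference of −0.36 ± 0.08 (SE) did not pass, with an adjusted p of 0.106 in limma. SIR3 (YLR442C), the histone-binding subunit, had signals of 9.75 and 9.81 in the wild type and of 9.81 and 9.87 in the deletion. The groups were separated by only 0.0045 (log2). Its difference of 0.06 had a 95% interval of −0.11 to 0.23.

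The genes for the 3 subunits of the Sir2-Sir3-Sir4 complex thus had unequal differences. That of SIR4 was 1.24 (log2) above that of SIR2 and 0.82 above that of SIR3, gaps between genes that were not tested. SIR1 (YKR101W), which acts in establishment at the mating-type silencers, had signals of 8.96 and 9.06 in the wild type and of 9.10 and 9.31 in the deletion. Both deletion arrays were higher, and the difference of 0.20 ± 0.10 (SE) did not pass (adjusted p = 0.297, limma). Its 95% interval ran from −0.04 to 0.44. The difference was 0.09 without fun30 deletion replicate 2 and 0.30 without fun30 deletion replicate 1.

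**Figure D2:**
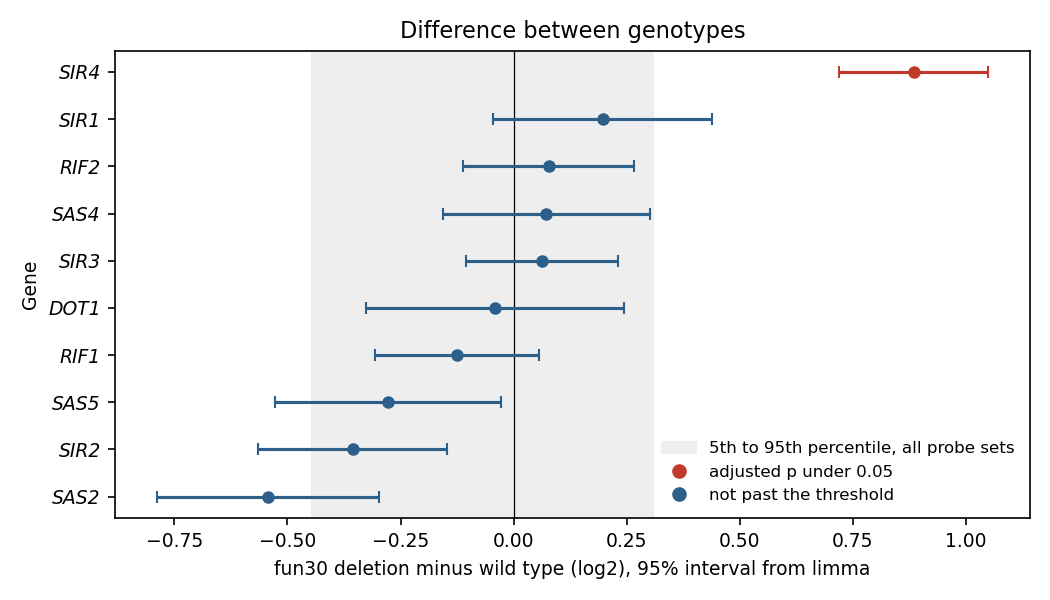
Difference in log2 signal, fun30 deletion minus wild type (horizontal axis), for each of the 10 genes, with 95% intervals from limma that are not adjusted for the number of genes. The grey band spans the 5th to the 95th percentile of all probe sets, from −0.45 to 0.31, and SIR4 at 0.88 (red, past the threshold) and SAS2 at −0.54 lie outside it.

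The rise of SIR4 was shared with the genes beside it. SIR4 lies inside a run of 47 consecutive measured probe sets on chromosome IV, from GCD6 to EXG2, in which 39 rose. This run was delimited on these data. Without SIR4, the other 46 had a median log2 difference of 0.85, with a range of 0.05 to 1.26, and SIR4 ranked at position 19 of 47 from the top. The nearest gene on one side is PCF11 (YDR228C), an mRNA cleavage factor, which rose by 0.83. On that side IVY1, a vacuolar protein gene, COX20, a cytochrome oxidase assembly gene, HEM1 of haem synthesis and RTN1, a reticulon, rose by 0.97, 0.88, 0.66 and 0.41. All 5 measured neighbours on that side passed the threshold.

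On the other side, 1 of the 5 nearest measured genes rose. This was CRF1, a repressor of ribosomal protein genes, with a rise of 1.14. The adenylate kinase gene ADK1, next to SIR4, had a difference of 0.32 that did not pass (adjusted p = 0.125, limma). The histone genes HTA1 and HTB1 differed by 0.06 and 0.05, on mean log2 signals of 14.08 to 14.36, and YDR222W by 0.63, with no call. Over the 10 neighbours the median was 0.64. Whether the run accounts for the SIR4 value was not tested apart from these measurements. The other 3 genes of the set on the same chromosome, SIR2, SAS4 and DOT1, lie outside the run and had differences of −0.36, 0.07 and −0.04.

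**Figure D3:**
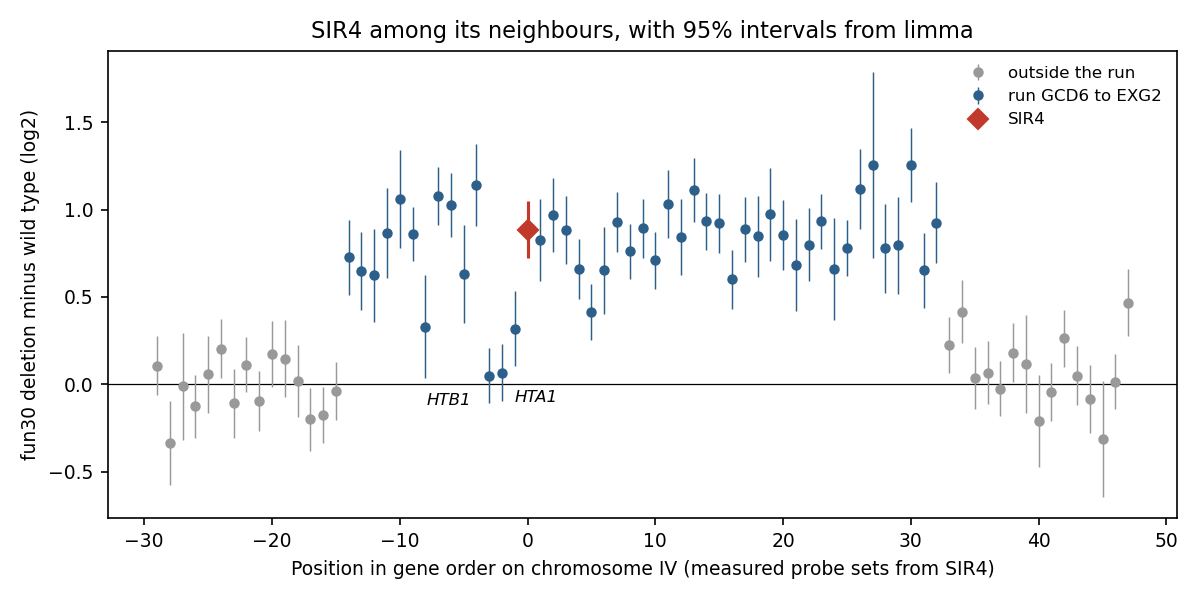
Difference in log2 signal, fun30 deletion minus wild type (vertical axis), for measured probe sets in gene order around SIR4 on chromosome IV, with 95% intervals from limma. SIR4 (red diamond, 0.88) sits near the median of 0.85 of the other probe sets of the run (blue), which includes HTB1 and HTA1 near 0, and the probe sets outside the run (grey) scatter around 0.

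Around each of the other 9 genes, 8 to 10 measured neighbours were examined. None of these neighbours rose, and 3 fell, of which 2 lie beside SIR2 and 1 beside SAS2. The neighbours of SIR2 had a median difference of −0.06, with a range of −0.98 to 0.13, and 3 of 10 lay lower than SIR2 itself. The neighbours of SAS2 had a median of −0.07, and 2 of 10 lay lower than SAS2. SAS5 lay below all 10 of its neighbours, whose lowest difference was −0.27.

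The telomere length regulators had small differences of opposite sign, neither of which passed. RIF1 (YBR275C), whose product also restrains replication origins, had log2 signals of 8.61 and 8.60 in the wild type and of 8.54 and 8.42 in the deletion. Both deletion arrays were lower, with a difference of −0.13 ± 0.07 (SE) that did not pass (adjusted p = 0.361, limma). RIF2 (YLR453C), whose product binds Rap1 beside Rif1, had signals of 7.81 and 7.69 in the wild type and of 7.79 and 7.87 in the deletion. These groups overlapped. The difference of 0.08 had a 95% interval of −0.11 to 0.27, and that of RIF1 an interval of −0.31 to 0.06. Both intervals included 0, so neither direction was established. With quantile normalization the differences were −0.03 for RIF1 and 0.13 for RIF2.

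In the SAS-I complex, which acetylates histone H4 ahead of the silent domain, the genes of 2 subunits were lower on both deletion arrays and that of the third was not. SAS2 (YMR127C), the catalytic subunit of the MYST family, had signals of 8.40 and 8.42 in the wild type and of 7.99 and 7.75 in the deletion. Its difference of −0.54 ± 0.10 (SE) was the lowest of the 10 genes, and 4.87% of all probe sets had a larger absolute difference. It did not pass, with an adjusted p of 0.0630 in limma. Without fun30 deletion replicate 1 it passed, at −0.66 with an adjusted p of 0.00696 (limma), and without fun30 deletion replicate 2 it was −0.42. SAS5 (YOR213C), which stimulates the enzyme, had signals of 10.47 and 10.30 in the wild type and of 10.20 and 10.01 in the deletion. The groups did not overlap, but the difference of −0.28 ± 0.10 (SE) was no call (adjusted p = 0.194, limma).

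SAS4 (YDR181C), the subunit that joins the complex together, had signals of 10.31 and 10.29 in the wild type and of 10.48 and 10.26 in the deletion. The wild-type values lay between the deletion values, and the difference was 0.07 with a 95% interval of −0.16 to 0.30. The difference of SAS4 was 0.62 (log2) above that of SAS2 and 0.35 above that of SAS5. These gaps were not tested. DOT1 (YDR440W), the histone methyltransferase named for disruption of telomeric silencing, had signals of 9.68 and 9.38 in the wild type and of 9.50 and 9.47 in the deletion. The wild-type arrays differed from each other by 0.30, more than the difference between genotypes of −0.04 ± 0.11 (SE). Its 95% interval of −0.33 to 0.24 was the widest of the 10 genes.

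Partners of these proteins were examined as lists, chosen with earlier results of these data known. None of the 43 partner genes rose or fell in limma, with 13 at an unadjusted p under 0.05, of which 2 were higher and 11 lower. Over all 5498 probe sets, 22.2% had an unadjusted p under 0.05, 535 of them higher and 687 lower. Of the 18 partners at silent chromatin and telomeres, 10 had a lower mean in the deletion, against 2787 of all 5498 probe sets. The median of the 18 was −0.07. Of the 18, 9 had an unadjusted p under 0.05 (limma), 2 of them higher and 7 lower. Both deletion arrays lay lower for 10 and higher for 5, against 30% and 28.5% of all probe sets. The largest difference was that of RAP1, which encodes the protein that recruits the Sir and Rif proteins. It went from 9.80 ± 0.05 to 9.40 ± 0.02 (SD, n = 2 each), a difference of −0.40 ± 0.07 (SE) that missed the threshold with an adjusted p of 0.0510 in limma. With arrays centred on their median its adjusted p was 0.0499, with dim probe sets left out 0.0488 and without wild type replicate 2 0.0453, all in limma. It was 0.143 without wild type replicate 1, 0.141 without fun30 deletion replicate 2, 0.0910 without fun30 deletion replicate 1, 0.0713 with quantile normalization, 0.0683 with the chromosome IV run left out and 0.0555 with an intensity trend, also in limma. UBP10, a histone deubiquitinase that acts in telomeric silencing, had a difference of −0.34 (adjusted p = 0.165, limma).

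Of the 14 sirtuin, NAD and rDNA partners, 9 were lower on average, against 2787 of all 5498 probe sets. The median of the 14 was −0.09. Of the 14, 4 had an unadjusted p under 0.05 (limma), all lower, against 22.2% of all probe sets. Their differences ran from −0.47 to 0.10, the lowest being that of HST3, a Sir2 relative that deacetylates newly made histone H3 (adjusted p = 0.132, limma). Without wild type replicate 2, HST3 passed at −0.64 (adjusted p = 0.0263, limma), and without wild type replicate 1 it stood at −0.29 (adjusted p = 0.219, limma). TOF2, a nucleolar protein of rDNA silencing, had −0.30 with an adjusted p of 0.152 (limma). The 9 genes of telomere end binding and telomerase were near the wild type, from −0.13 for EST3, a telomerase subunit, to 0.20 for TEL1, the telomere-length kinase. None of these 9 had an unadjusted p under 0.05. The relatives of Sas2 in the MYST family, SAS3 and the essential ESA1, had differences of −0.12 and 0.03. Over all 5498 probe sets the median difference was −0.003.

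The outputs of silencing were examined next. HMLALPHA1, read by a probe set whose name marks cross-hybridisation, reports the regulator gene held silent at HML in a MATa cell. Its log2 signals were 4.24 and 4.23 in the wild type and 4.37 and 4.05 in the deletion. All 4 lay below the background level of 5.24, so no signal of this gene was detected in either genotype. HMRA1 and HMRA2 had signals between 10.79 and 11.93. In a MATa cell the same sequences are expressed from the MAT locus, so these probe sets cannot tell the silent copy apart. Their differences of 0.21 and 0.05 did not pass (adjusted p = 0.164 and 0.773, limma).

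Of the measured alpha-specific genes, which need the alpha1 activator, 1 of 2 rose, where 1.36% of all probe sets rose. STE3, the a-factor receptor gene, had signals of 7.78 and 7.84 in the wild type and of 8.25 and 8.33 in the deletion, a rise of 0.48 ± 0.07 (SE, adjusted p = 0.0343, limma). It no longer passed without fun30 deletion replicate 2 (adjusted p = 0.103), without wild type replicate 1 (0.110) and with the chromosome IV run left out of the fit (0.0507), all in limma. SAG1, the alpha-agglutinin gene, had a difference of 0.24 with no call. None of the 7 a-specific genes passed in limma, although 3 had an unadjusted p under 0.05, against 22.2% of all probe sets. All 7 had lower means, from −0.36 for BAR1, a pheromone protease, to −0.06 for STE6. Lower means were found for 2787 of all 5498 probe sets. AGA2, an agglutinin subunit, differed by −0.25. Without fun30 deletion replicate 1, BAR1 passed at −0.55 (adjusted p = 0.0271, limma), and without fun30 deletion replicate 2 it stood at −0.16 (adjusted p = 0.812, limma). The mean signals of all 7 lay above the background level in both genotypes. Those of STE3 and SAG1 did so too, at 7.81 and 9.11 in the wild type, so being above this level did not set the a-specific genes apart from the alpha-specific genes.

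Of the 10 haploid-specific genes, which the a1-alpha2 repressor turns off when silent loci are expressed, 2 fell, against 1.29% of all probe sets. No probe set of an alpha2 gene was among those tested, and a part of this repressor was not tested. HO, the mating-type switching endonuclease, fell by 1.88 (adjusted p = 0.00768, limma), and FAR1, the pheromone arrest factor, fell by 1.26 (adjusted p = 0.0229, limma, and 0.0805 without wild type replicate 1). The other 8 did not pass. By their means 6 of the 10 were lower and 4 higher, against 2787 lower and 2711 higher of all 5498 probe sets. FUS3, the pheromone MAP kinase gene, at −0.43 and GPA1, the gene of the pheromone G protein alpha subunit, at −0.41 also had an unadjusted p under 0.05 (limma) without passing. The list's median was −0.16.

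The Sir complex and the Rif proteins act at chromosome ends, but their binding at the genes below was not measured. Of the 96 genes made up of the 3 outermost tested genes of each chromosome arm, 16 fell (16.7%) and 1 rose, where 1.29% of all probe sets fell. The difference between these shares was not tested. Probe sets whose names mark cross-hybridisation were not left out of these counts. Genes that lie side by side may also not be independent readings. The largest falls were those of COS8 and YIR042C, at −2.44 and −1.81, and of the arsenic resistance genes ARR2 and ARR3, at −1.34 and −1.32. The 1 rise was that of SOR2, a sorbitol dehydrogenase gene, at 0.58. The median over the 96 was −0.11, and 10 of them had means below the background level in both genotypes.

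The integration arrays asked in which deletion strains a linear cassette integrates more or less readily than a plasmid transforms. Values are log2 ratios minus the array median. The numerator of the deposited ratio is not stated in the labels or files used here, so positions are given only as above or below the median. As landmarks, strains lacking the recombination genes RAD54, RAD55, RAD57 and RAD59 had means over both arrays of 2.08 to 2.71. That of rad54 came from 1 tag on each array, not the same tag, and rad55 had 1 tag on the SOD2 array. The fun30 strain and the strains lacking the resection factors EXO1 and SGS1 had means of −1.32, −1.32 and −1.07. The fun30 strain had 1 tag on each array, and sgs1 had 1 tag on the ISU1 array. The mean of a strain had a standard error of 0.25 from a variance pooled over all 4235 strains on both arrays. A tag had an SD of 0.28 on each array. Both arrays used a plasmid pool as control, and the labels do not state whether it was the same pool, so the arrays may not be independent.

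None of the 7 strains was called above or below the median in limma with an adjusted p under 0.05, where 8.74% of all strains were (6.02% above and 2.72% below), and 1 had an unadjusted p under 0.05, against 17.6%. None lay past 2-fold on both arrays, where 1.91% of all strains did above the median, 0.638% below it and 2.55% in all, and none passed 2-fold on either array. Their means ran from −0.49 for sas2 to 0.38 for dot1, and the median of −0.02 was close to that of all strains, −0.01. Of the 7, 4 lay on the same side of the median on both arrays, against 60.6% of all strains.

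**Figure D4:**
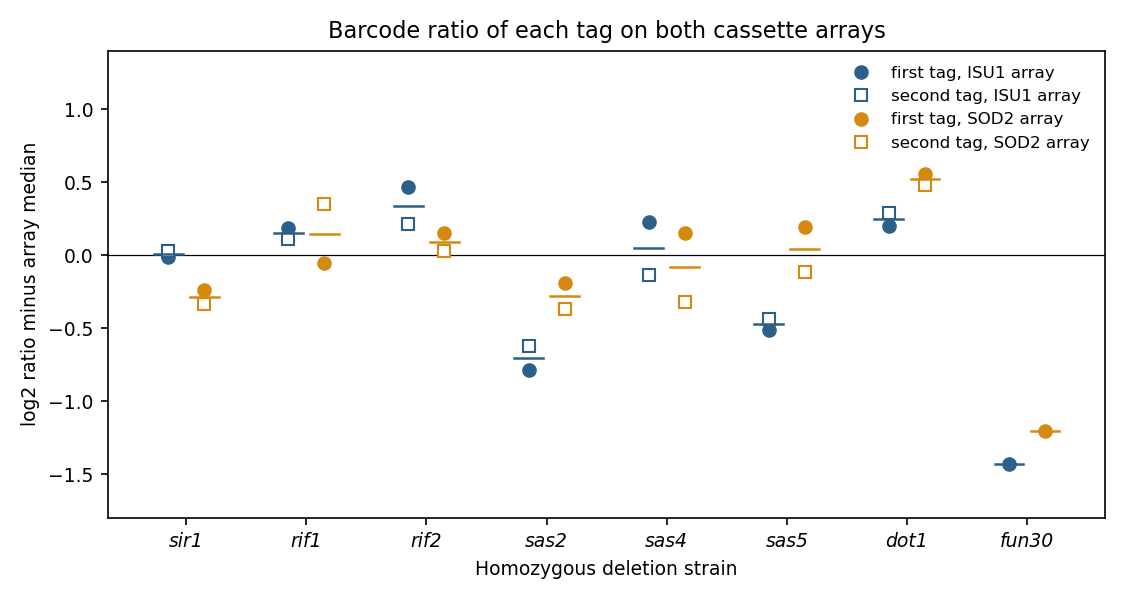
Log2 barcode ratio minus the array median (vertical axis) for the first tag (filled) and the second tag (open) of 7 deletion strains on the ISU1 array (blue) and the SOD2 array (orange), with lines at the strain means and the fun30 strain, which has 1 tag, beside them. All 4 values of sas2 lie below 0 and all 4 of dot1 and rif2 above 0, none as far from 0 as fun30 at −1.43 and −1.20.

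The sas2 strain was the lowest of the 7. Its tags had ratios of 0.58 and 0.65 on the ISU1 array and of 0.93 and 0.82 on the SOD2 array, where the array medians were 1.00 and 1.06. All 4 values lay below the median, at a strain value of −0.70 on the ISU1 array and of −0.28 on the SOD2 array. This placed it at percentile 5.00 of all strains on the first array and 23.2 on the second. The mean of −0.49 (95% interval −0.97 to −0.01) had an adjusted p of 0.270 in limma. The fun30 strain lay at −1.43 and −1.20 on the same arrays.

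The strains lacking the other SAS-I subunits had means nearer to the median. The sas5 tags had ratios of 0.70 and 0.74 on the ISU1 array and of 1.21 and 0.98 on the SOD2 array. Both ISU1 values were low, while the SOD2 values lay on either side of the median. Its strain values were −0.47 and 0.04, and 25.0% of strains had a larger gap between the arrays than its 0.51. The sas4 tags had ratios of 1.17 and 0.91 on the ISU1 array and of 1.18 and 0.85 on the SOD2 array. On both arrays the first tag was above and the second tag below the median, and the strain mean was −0.02, with a 95% interval of −0.50 to 0.46. The 3 means were thus −0.49, −0.22 and −0.02 for sas2, sas5 and sas4, and no test between strains was made.

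The dot1 strain was the highest of the 7. Its tags had ratios of 1.15 and 1.22 on the ISU1 array and of 1.56 and 1.48 on the SOD2 array. All 4 values lay above the median, at percentiles 75.1 and 84.9 of all strains. The mean of 0.38 (95% interval −0.10 to 0.87) had an adjusted p of 0.467 in limma.

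The rif1 and rif2 strains lay slightly above the median. The rif1 tags had ratios of 1.14 and 1.08 on the ISU1 array and of 1.02 and 1.35 on the SOD2 array, with strain values of 0.15 on both. The rif2 tags had ratios of 1.38 and 1.16 on the ISU1 array and of 1.18 and 1.08 on the SOD2 array, with strain values of 0.34 and 0.09. Only the first rif1 tag on the SOD2 array lay below the median. The adjusted p values of their means were 0.879 and 0.781 in limma, with 95% intervals of −0.33 to 0.63 and of −0.27 to 0.70. The sir1 tags had ratios of 0.99 and 1.02 on the ISU1 array and of 0.90 and 0.84 on the SOD2 array. The strain was at the median on the first array (0.01) and below it on the second (−0.29), with a mean of −0.14 and an adjusted p of 0.884 in limma.

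**Figure D5:**
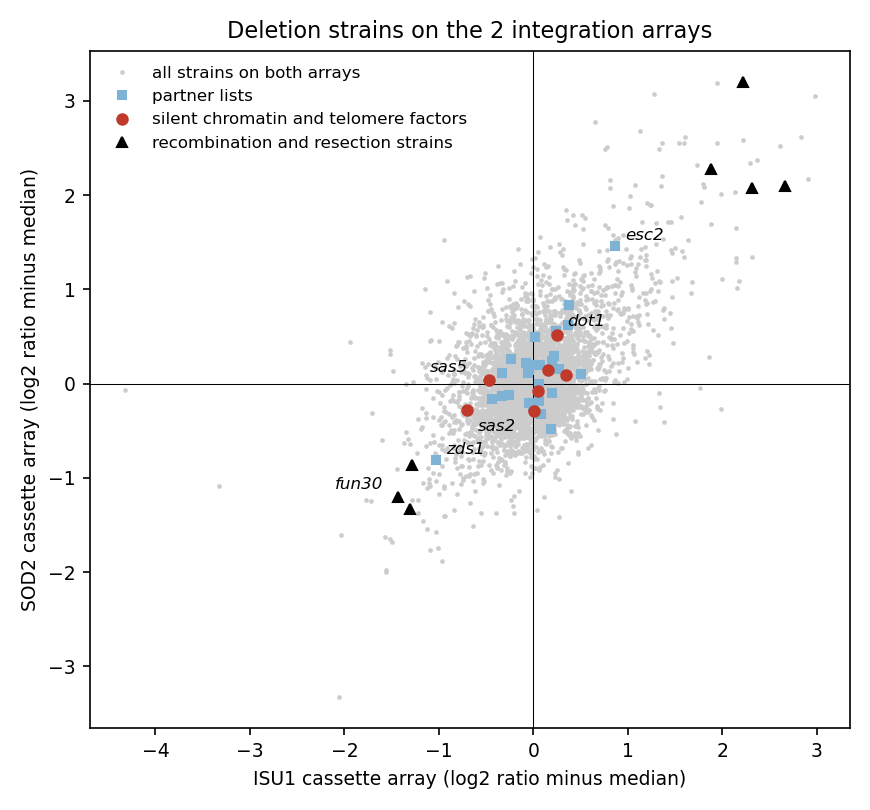
Strain values (log2 ratio minus the array median) on the ISU1 array (horizontal axis) and the SOD2 array (vertical axis) for 4235 strains (grey), with the 7 silent chromatin and telomere factor strains (red), 27 partner strains (blue) and the recombination and resection strains (black). The red points stay within 1 unit of 0 on both axes, while esc2 at 0.86 and 1.45 and zds1 at −1.03 and −0.81 lie farther out.

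Among strains of the partner lists, 27 were measured on both arrays. Of these, 1 was called above the median and 1 below it, where the shares over all strains were 6.02% and 2.72%. The esc2 strain, which lacks a protein of silencing and of genome stability, had ratios of 1.88 and 1.76 on the ISU1 array and of 2.32 and 3.64 on the SOD2 array. All 4 tag values were high, with a mean of 1.16 (95% interval 0.68 to 1.64, adjusted p = 9.78e-05, limma). The zds1 strain, which lacks a regulator of phosphatase activity with a role in silencing, had ratios of 0.50 and 0.48 on the ISU1 array and of 0.65 and 0.56 on the SOD2 array. All 4 were low, with a mean of −0.92 (adjusted p = 0.00397, limma, and 0.0712 with the first tag of each strain alone).

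Strains of the sirtuin and telomerase lists gave no call. The largest means of the former were 0.61 for sum1, which lacks a repressor that works with Hst1, and −0.30 for hst1. The sum1 mean had an adjusted p of 0.120 in limma. In the telomere end list, est3 and tel1 had the largest means, 0.40 and 0.26, and the 6 strains measured had a median of 0.22. The est3 value came from 1 tag on each array. The tel1 mean was 0.49 with the first tag and 0.029 with the second, so its place in that order rested on the tag. The strain lacking SAS3, the MYST relative of Sas2, had a mean of 0.05.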

How the data were processed

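The authors deposited expression as log2 signals, 1 per probe set, made with RMA. The submitters' processing notes name RMA and limma. RMA makes the distributions of arrays alike, so a change of the whole transcriptome would not be seen. Integration was deposited by the authors as linear ratios of 2 channels. How these were scaled, and which channel is the numerator, is not stated in the sources used here. Cy5 marked the plasmid pool on the ISU1 array and the SOD2 cassette pool on the other, per the labels. In any gap between the 2 arrays, cassette and dye therefore cannot be told apart. Over strains the arrays correlated with r = 0.53, and the deposited sign was kept on both. The number of arrays limits the precision.

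Probe sets were named through GEO's platform annotation and the RefSeq gene table (assembly R64), used for names and gene order only. Features at an offset of 10971 named the same gene in all 3402 pairs with both named, and each pair was treated as the tags of 1 strain. Tags were centred on the array median in log2 and averaged.

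Genotypes were compared in R 4.3.3 by limma 3.58.1 (lmFit, eBayes) over 5498 probe sets. Tests were 2-sided, p-values were adjusted by Benjamini-Hochberg, and calls needed an adjusted p under 0.05 (2 residual and 3.23 prior degrees of freedom). Strain means over both cassette arrays were tested against 0 in the same way, on 1 residual degree of freedom, where the prior degrees of freedom were infinite. Both fits were run on simulated data in which the noise of each array was independent, so noise shared between arrays was not covered. The genes and lists were chosen with earlier results of these data known. Named were all 10 genes, the 5 measured neighbours on each side of SIR4, and from each list the genes that passed (at most 4) or, where none passed, up to 2 with the largest difference, and up to 2 strains of each partner list. A few other list genes (SAG1, FUS3, GPA1, STE6, HMRA2, HMLALPHA1, URA3, LEU2, HIS3) were named after their values were seen. Alternatives were the replicate number as a block, each array left out, another normalization or centring, dim probe sets or the chromosome IV run left out, an intensity trend, single tags, strains with both tags and a 1.5-fold threshold. Figures were drawn with matplotlib 3.10.9 in Python 3.11.15.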

Additional observations from a re-analysis of the deposited data

Results flagged for a closer look

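The strain lacking SAS3, a MYST acetyltransferase related to Sas2, lay on opposite sides of the median on the 2 cassette arrays with both of its tags. It had a mean of 0.20 on the ISU1 array and of −0.10 on the SOD2 array, a gap of 0.30 (log2). A larger gap was found for 49.9% of strains, and 1661 of the 4235 strains on both arrays lay on opposite sides. This strain was therefore ordinary in both respects. The difference was not tested, since each cassette had 1 array. The dye of the cassette pool also differed between the arrays, so cassette and dye cannot be told apart. The SD of this gap over all strains was 0.49.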

How the results depend on the processing

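SIR4 rose in all 10 fits that held it, with adjusted p values from 0.00118 to 0.0284 (limma). With the replicate block, 271 probe sets rose and 523 fell, and 3 of the 10 genes fell: SIR2 (adjusted p = 0.0200), SAS2 (0.0127) and SAS5 (0.0412, limma). RAP1, UBP10, HST3 and BAR1 also passed with the block (adjusted p of 0.0155, 0.0241, 0.0424 and 0.0350, limma). The labels give no pairing beyond the shared number, and deviations of same-numbered arrays correlated with r = 0.26 over probe sets. When 1 array was left out, 52 to 194 probe sets rose and 23 to 307 fell, and 0 to 1 of the 10 genes fell. The lowest counts of probe sets came without wild type replicate 1. With the chromosome IV run left out, 23 rose and 45 fell. Directions of uncalled values turned for SAS4 (−0.034 to 0.18), DOT1 (−0.19 to 0.11), SAS3 (−0.25 to 0.0083), HMRA2 (−0.046 to 0.14) and HMLALPHA1 (−0.19 to 0.14) over the fits without 1 array, and for HMLALPHA1 with quantile normalization (0.024). The integration arrays gave 122 strains above and 53 below with the first tag alone, 64 below with the second tag and 56 below without centring. At 1.5-fold, 206 strains lay above and 99 below on both arrays. The sas4 mean was 0.19 with the first tag and 0.024 without centring. None of the 7 strains was called or passed 2-fold in any of these fits. The causes of these shifts were not tested.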
